A study of Mus musculus with 10 samples.

Results

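The genes described here are those of interleukins, chemokines, tumour necrosis factor (TNF) superfamily ligands and the receptors of all 3 groups, read in mouse liver with and without Scd1, which encodes a desaturase that introduces the double bond of oleic and palmitoleic acid. The members were chosen by name alone, as probe sets with 1 platform gene symbol that starts with Il and a digit, Ccl, Cxcl, Ccr or Cxcr and a digit, or Tnfsf or Tnfrsf. They were 104 of the 10043 probe sets in the table. Of these, 2 are Affymetrix control probe sets for Il4 and Il10, which left 102 probe sets of 93 genes, and 6 further probe sets with several symbols were not counted as members.

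Liver RNA of 10 female mice aged 6 weeks, on chow and not fasted, was hybridised to 10 MG_U74A arrays, 1 mouse per array. The 5 Scd1 -/- mice, called null 1 to null 5, carried a mixture of 129 and C57BL/6J backgrounds, whereas the 5 Scd1 +/+ mice, called WT 1 to WT 5, were C57BL/6J, so genotype, strain background and also chip lot cannot be told apart. The labels name no conditional allele or tissue-specific Cre. Scd1 itself read 445, 90, 322, 919 and 319 on null 1 to null 5 and 20300, 18553, 18491, 13374 and 16897 on WT 1 to WT 5 at its brightest probe set.

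Interleukins and chemokines are secreted proteins through which immune, endothelial and parenchymal cells signal to each other, and TNF superfamily ligands act both in secreted form and on the cell surface. Most interleukin receptors signal through JAK kinases and STAT transcription factors, the receptors of the interleukin-1 and TNF families signal through adaptor proteins toward NF-kappaB and caspases, and chemokine receptors are G protein-coupled receptors that steer cell migration. In liver, Kupffer cells (the resident macrophages), lymphocytes and endothelial cells make many of these ligands, while hepatocytes carry receptors such as that of interleukin-6, which drives the acute phase response.

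Intensity values were quantile normalized, raised to a floor of 351 (the 25th percentile of all values) where they lay below it, and taken to log2. Values quoted for single arrays are the normalized intensities before the floor, so they can lie below it or below 0. Differences are Scd1-null minus wild type on the log2 scale, from limma fitted to the 7569 probe sets that exceeded the floor on 5 or more arrays, and a probe set with a Benjamini-Hochberg adjusted p under 0.05 over those 7569 is called higher or lower. This filter kept 68 of the 102 member probe sets, standing for 62 genes, and left 34 untested. The arrays fell into 3 runs by the hybridisation times in their settings files: null 1 to null 4 in run 1, null 5 and WT 1 to WT 3 in run 2, and WT 4 and WT 5 in run 3. On the second principal component WT 4 lay far from the rest (23.81, the others between -7.23 and 1.65), and a comment in the settings file of WT 3 says that evaporation made its amount of labelled RNA inaccurate. Without both of these arrays 2 members were called higher and 1 lower, against 266 and 214 of all 7569 tested probe sets. No kept member had 1 group wholly at the floor, but for some the 5 arrays of 1 group alone met the filter. Among these, Il1b exceeded the floor on 5 Scd1-null and 2 wild-type arrays. Il13, Cxcl10 and Il16 exceeded it on 5 wild-type arrays and on 1, 2 and 2 Scd1-null arrays. Brightness depends on the probes as well as on the transcript, so intensities are compared between mice and not between genes.

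Of the 68 kept member probe sets 3 were called: Il1b and Tnfrsf1b were higher in Scd1-null liver and Ccl11 was lower. That is 4.41% of the kept members, where 6.33% of all tested probe sets were called (3.57% higher and 2.76% lower), so calls among the members were no more frequent than on the array as a whole. Over the kept members the median difference was -0.05, against -0.02 over all kept probe sets, with 27 members above 0 and 41 below it. Of all 7569 kept probe sets 3556 lay above 0 and 4013 below it. At an unadjusted p under 0.05 stood 19 members, or 27.9%, against 26.0% of all tested probe sets. In 7 members, or 10.3%, the 2 groups did not overlap, against 8.13% of all tested probe sets. Of those 7, 1 was higher and 6 were lower, where the shares of all tested probe sets were 4.03% and 4.1%. On the deposited scale, before normalization, 2 members without overlap were higher and 2 lower, against 442 and 133 of all 7569 tested probe sets. With no filter 1 member, Il16, was called, and 3.04% of all probe sets.

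**Figure D1:**
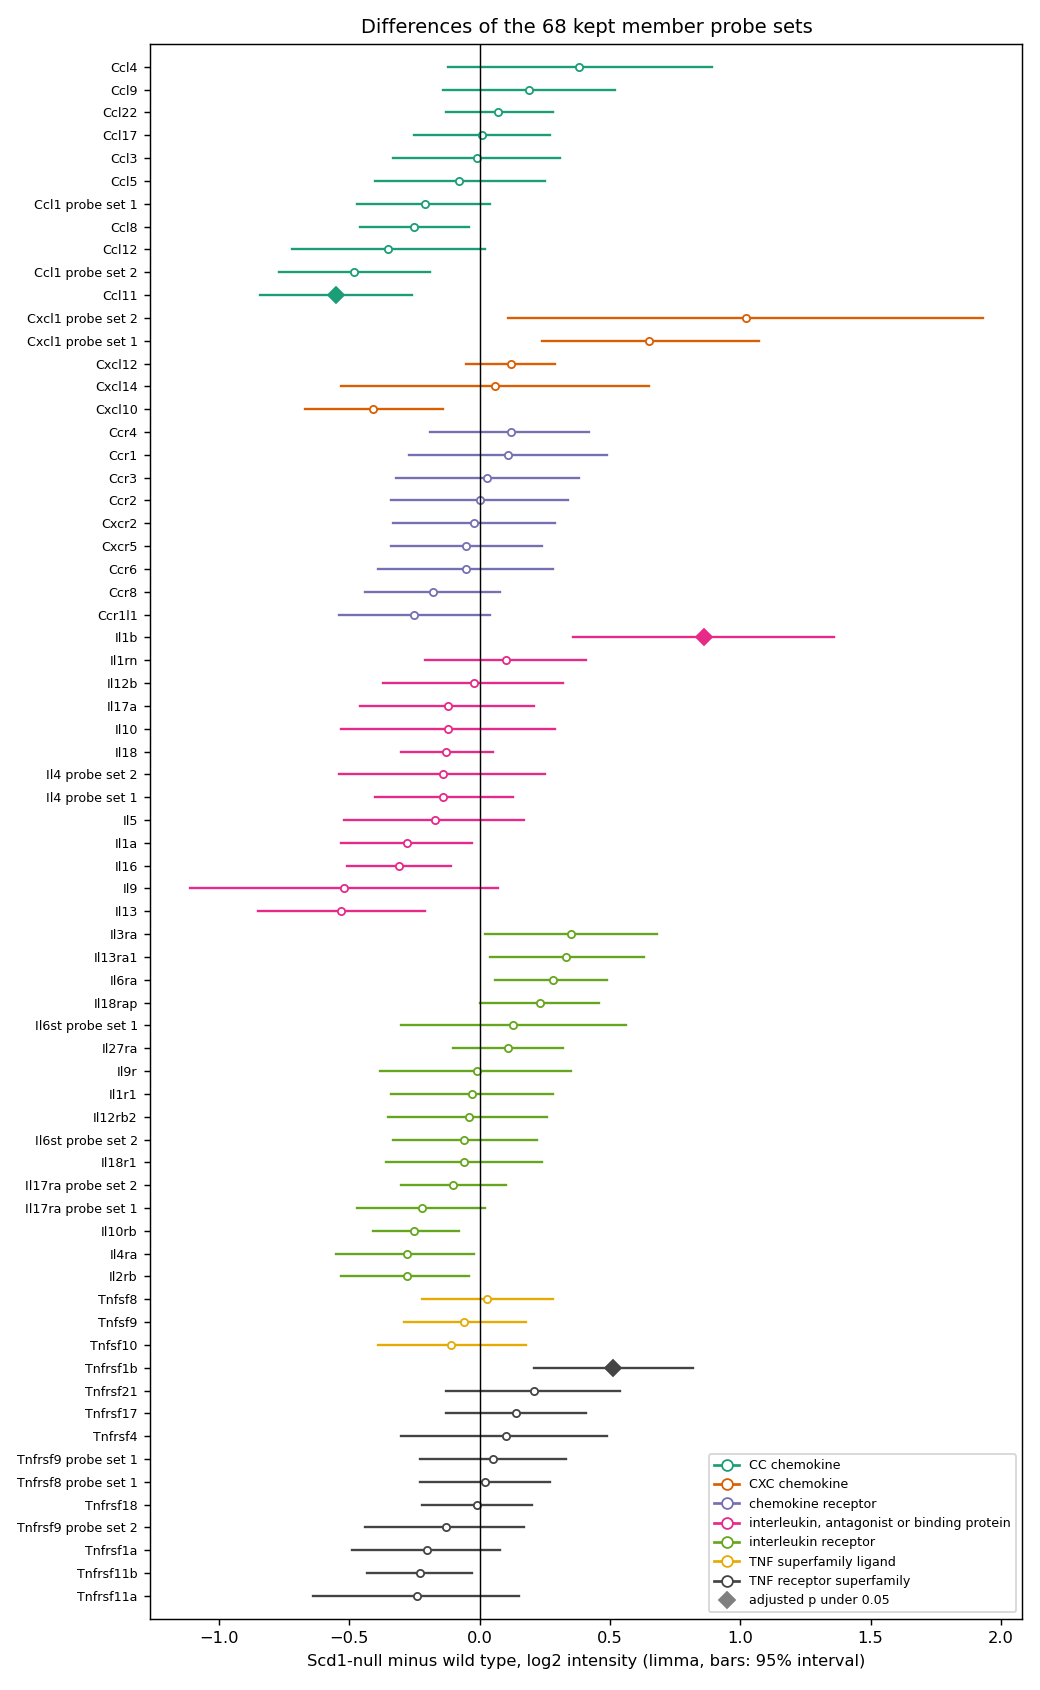
Difference (Scd1-null minus wild type, log2 intensity, horizontal axis) with its limma 95% interval for each of the 68 kept member probe sets, coloured by class; filled diamonds are called. Only Il1b, Tnfrsf1b and Ccl11 are filled, at 0.86, 0.51 and -0.55.

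Whether a member is above background cannot be read from the floor, and the table gives no detection calls. A list of genes restricted to other tissues (lens, retina, testis, muscle, brain, skin and others) was therefore used as the measure of unspecific signal. It had 177 probe sets of 158 genes. A member was taken as above background where all 5 arrays of a group exceeded the 95th percentile of that list on the same array, which lay between 3058 and 4046. By this measure 2 of the 102 member probe sets were above background, Il27ra and Ccl9, or 1.96%, against 10.9% of all 9977 probe sets. Il27ra passed in both groups. Ccl9 passed in the Scd1-null group alone, on null 4 by 3654 against 3652, and WT 1 and WT 4 lay below the threshold. At the 90th percentile of the list, between 2185 and 2564, the number was 8 of 102, against 17.8% of all probe sets. At the list's median, between 437 and 522, it was 41 of 102, against 63.1%. Of the 102 probe sets 22 lay at or below the floor on all 10 arrays. None of the 3 called members reached the 95th percentile on any array, so the calls given below concern dim signal, and its origin from the named transcripts was not tested. The probes of this array design were also not checked against current transcripts here, so a dim probe set does not show that a transcript is absent.

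**Figure D2:**
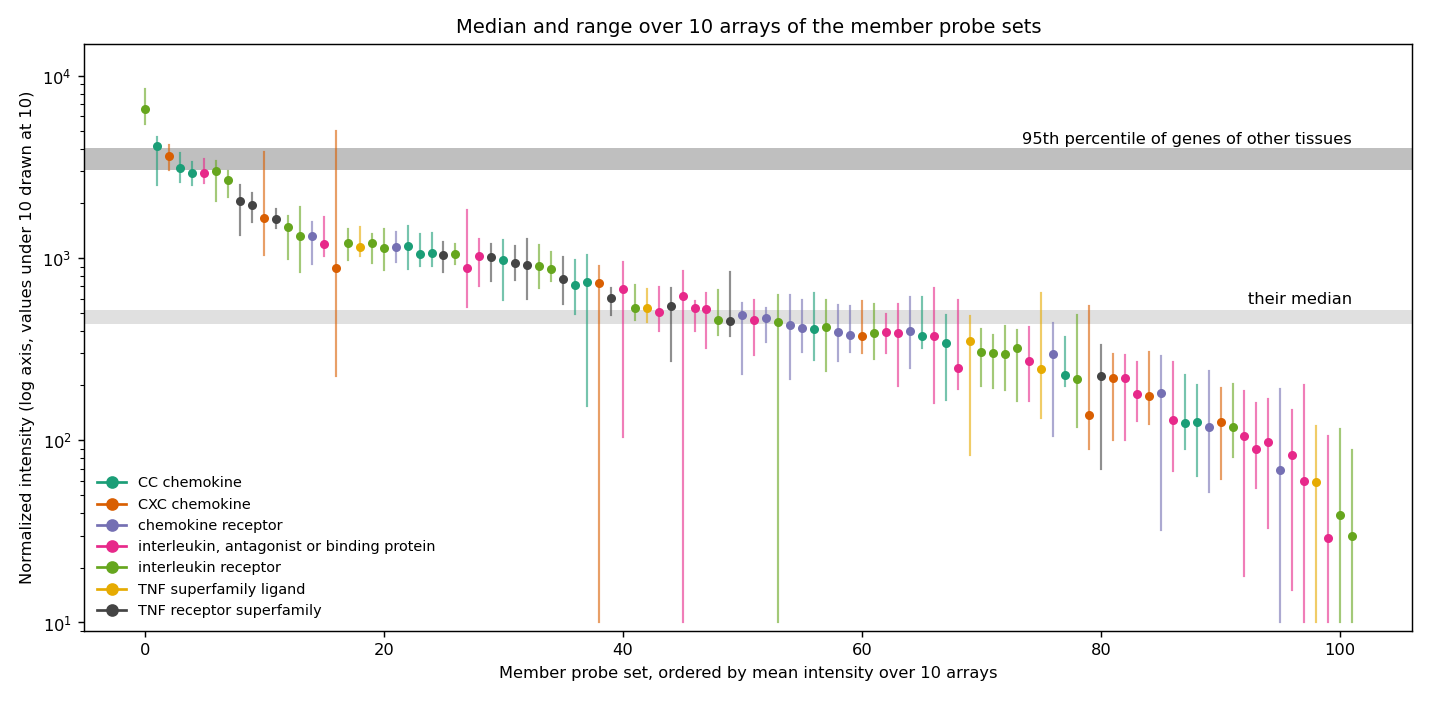
Median (point) and range (line) over the 10 arrays of the normalized intensity of the 102 member probe sets, on a log axis, ordered by mean and coloured by class. The dark and light bands span the 95th percentile (3058 to 4046) and the median (437 to 522) of genes restricted to other tissues; only Il27ra lies wholly above the dark band.

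Among the interleukins, their antagonists and binding proteins, 13 of 24 probe sets were kept, of which 1 was called higher and 0 lower. Il1b encodes interleukin-1 beta, a fever-inducing cytokine of activated macrophages. Il1b read 799, 955, 779, 703 and 647 on null 1 to null 5 and 364, 104, 262, 879 and 261 on WT 1 to WT 5. All Scd1-null values exceeded those of 4 wild-type mice, and WT 4 alone lay within the Scd1-null range. Il1b rose by 0.86 (SE 0.23, limma adjusted p = 0.0464). WT 2, WT 3 and WT 5 lay below the floor, so the size of this difference depends on where the floor is set. With a floor at the 40th percentile the difference was 0.23 (adjusted p = 0.255) and with a floor at the 10th percentile 1.27 (adjusted p = 0.0553).

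The Il1b call rested on which settings and arrays were used. It was not made with a pseudocount, with no filter or with no intensity trend. It was lost without any 1 Scd1-null array (adjusted p between 0.0623 and 0.113) and without WT 1, WT 2, WT 3 or WT 5 (0.0718 to 0.105). Without WT 4, the difference was 1.12 (adjusted p = 0.000636). With the run as a block the Il1b difference was 0.87 (adjusted p = 0.306), which rests on null 5 against 3 wild-type mice.

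Il1a, the cell-associated relative of Il1b that binds the same receptor, read 1241, 1153, 1182, 1079 and 1034 on null 1 to null 5 and 1548, 1359, 1158, 1693 and 1204 on WT 1 to WT 5. The groups overlapped and the difference was -0.28 (adjusted p = 0.148, 95% interval -0.53 to -0.03), with the opposite sign to that of Il1b. Their shared signalling receptor Il1r1 and the receptor antagonist Il1rn were kept and not called. The accessory chain Il1rap lay at or below the floor on all 10 arrays, and the decoy receptor Il1r2 was not kept either.

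Il18, an inflammasome-dependent cytokine that induces interferon-gamma, read 2877, 3072, 2660, 2866 and 2600 in the Scd1-null and 3125, 2704, 3083, 3500 and 2967 in the wild-type mice in order of number. The difference was -0.13 (adjusted p = 0.354, 95% interval -0.30 to 0.05), within overlapping groups. Il13, a type 2 cytokine of T cells and innate lymphoid cells, read 160, 292, 298, 355 and 207 against 682, 388, 605, 516 and 407. The groups did not overlap, with a difference of -0.53 (adjusted p = 0.0509), but 4 of the 5 Scd1-null values lay below the floor. The Il13 value was called without WT 2 (-0.62, adjusted p = 0.0353) or WT 5 (-0.61, adjusted p = 0.0331), on the deposited scale (-0.51, adjusted p = 0.0483) with a floor at the 10th percentile (-1.01, adjusted p = 0.0281), and also with 75th percentile scaling (adjusted p = 0.0458), a pseudocount (0.0343), robust eBayes (0.0451) and array weights (0.0314).

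Il16, a chemoattractant for CD4+ cells, read 383, 300, 351, 384 and 326 on null 1 to null 5 against 440, 405, 493, 464 and 463 on WT 1 to WT 5. No Scd1-null mouse reached the lowest wild-type value, and the difference was -0.31 (adjusted p = 0.0616), with 3 Scd1-null values at or below the floor. It was called with scaling to the 75th percentile (-0.36, adjusted p = 0.0429), with no filter (-0.31, adjusted p = 0.0273), with no intensity trend (adjusted p = 0.0415) and with array weights (0.0453). Apart from Il1b and Il1rn, every kept probe set of this class had, as normalized here, a difference below 0. The median was -0.14, and the values ranged from -0.53 to 0.86. Of all kept probe sets 4013 lay below 0 and 3556 above it, with a median of -0.02. Among the 11 untested probe sets were those of Il2, Il3, Il6, Il7, Il11 and Il12a.

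**Figure D3:**
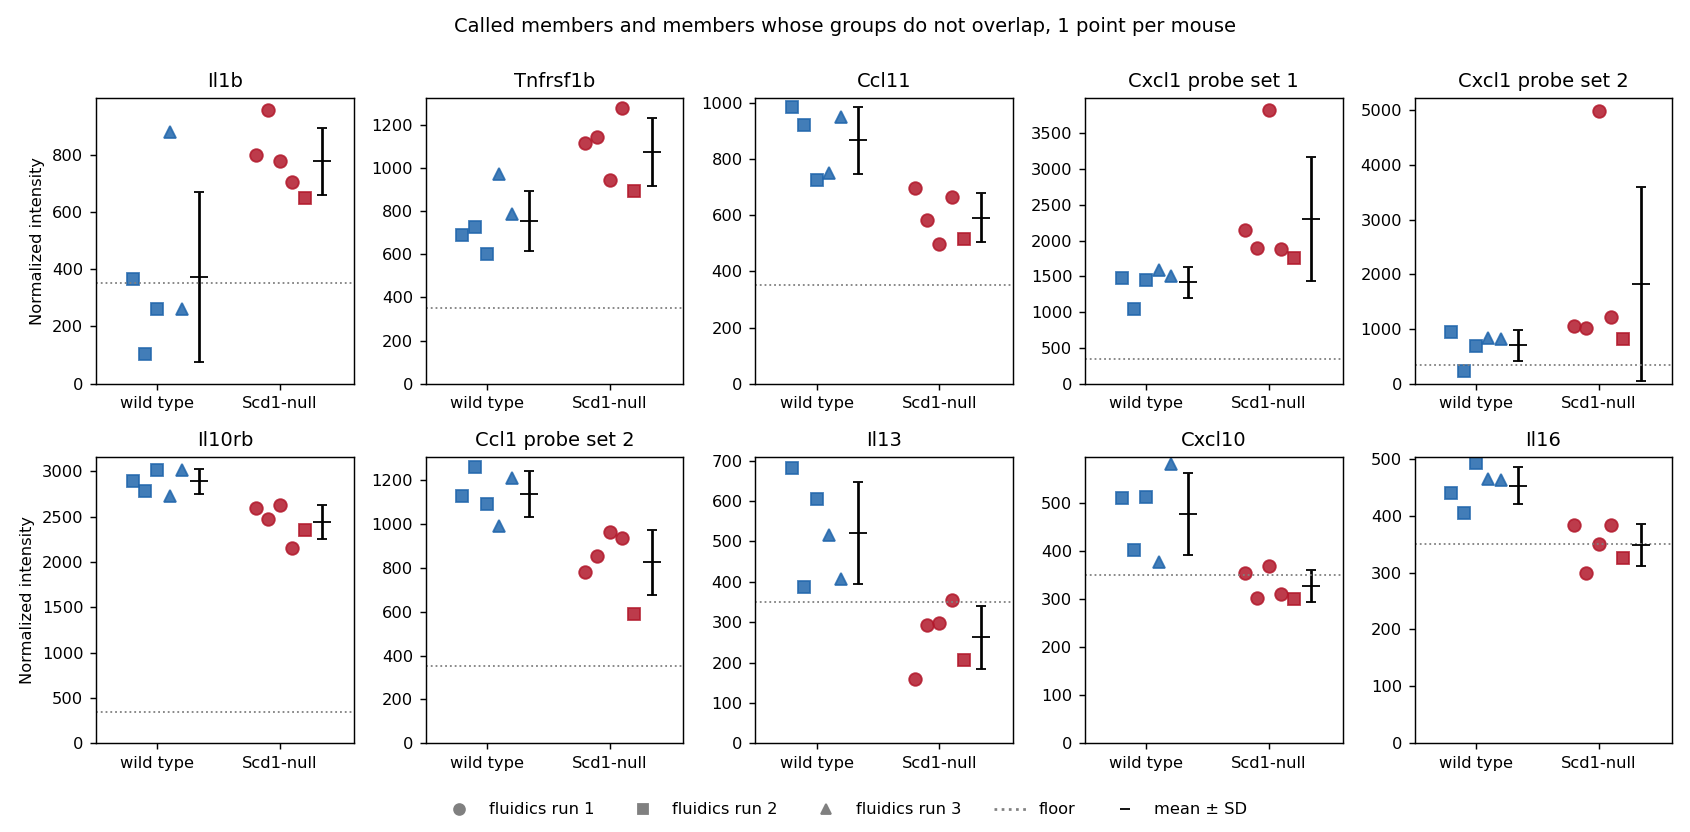
Normalized intensity (vertical axis, from 0) in each mouse for the 3 called members, both Cxcl1 probe sets and the other members whose groups do not overlap; marker shape gives the fluidics run, the dotted line the floor of 351, and the bar the mean ± SD of 5 mice. WT 4 is the wild-type point within the Scd1-null range of Il1b, and null 3 is the high Cxcl1 point at both probe sets.

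Of 15 probe sets of CC chemokines 11 were kept, of which 0 were called higher and 1 lower. Ccl11 encodes eotaxin, which attracts eosinophils through the receptor Ccr3. Ccl11 read 696, 583, 496, 664 and 516 on null 1 to null 5 and 983, 922, 724, 749 and 950 on WT 1 to WT 5, and every Scd1-null value lay below every wild-type value. Ccl11 fell by 0.55 (SE 0.13, limma adjusted p = 0.0289). The call was lost without null 2, null 3 or null 5 (adjusted p 0.0712, 0.0599 and 0.0773) or without WT 1 or WT 2 (0.0746 and 0.0665). With no filter the call was lost too (adjusted p = 0.0621). With the run as a block Ccl11 was at -0.75 (adjusted p = 0.209).

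Ccl1, a ligand of Ccr8, had 2 probe sets. The dimmer read 781, 854, 965, 936 and 592 on null 1 to null 5 and 1129, 1260, 1094, 992 and 1212 on WT 1 to WT 5, with a difference of -0.48 (adjusted p = 0.0527). These groups did not overlap. It was called without null 3 (-0.54, adjusted p = 0.0482) or WT 4 (-0.53, adjusted p = 0.0316), and also with 75th percentile scaling (adjusted p = 0.0474), a floor at the 40th percentile (0.0401), the filter at the median (0.0468), robust eBayes (0.0465) and array weights (0.0273). The brighter gave -0.21 with overlapping groups, so the 2 probe sets agreed in sign and not in size.

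Ccl9 attracts myeloid cells, and Ccl22 attracts T cells through Ccr4. Ccl9 read 4606, 4240, 4068, 3654 and 4020 in the Scd1-null mice in order of number and 2528, 4264, 4559, 2865 and 4318 in wild type. WT 1 and WT 4 were low, the other 3 wild-type mice lay among the Scd1-null ones, and the difference was 0.19 (adjusted p = 0.462, 95% interval -0.14 to 0.52). Ccl8 read 2886, 2920, 3507, 2632 and 2647 against 3574, 3312, 3776, 3728 and 2947, a difference of -0.25 (adjusted p = 0.124). Ccl22 read 2996, 2601, 3372, 3313 and 2878 against 2687, 2524, 2851, 3054 and 3291, a difference of 0.07 (adjusted p = 0.657, 95% interval -0.13 to 0.28). Ccl8 and Ccl22 both had overlapping groups. Ccl12, a mouse ligand of Ccr2, read 402, 275, 305, 315 and 456 against 416, 641, 647, 442 and 304, a difference of -0.35 (adjusted p = 0.213) in which 3 Scd1-null mice and WT 5 lay below the floor. Ccl2, the best known monocyte attractant, and Ccl6 were at or below the floor on all 10 arrays.

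Of 9 probe sets of CXC chemokines 5 were kept and 0 were called, with 3 of the 5 at an unadjusted p under 0.05: both Cxcl1 probe sets and Cxcl10. Cxcl1 encodes a neutrophil attractant that acts through Cxcr2. Its brighter probe set read 2154, 1897, 3823, 1882 and 1750 on null 1 to null 5 and 1480, 1046, 1448, 1592 and 1510 on WT 1 to WT 5. All 5 Scd1-null mice lay above all wild-type mice, with null 3 far above the rest, and the difference was 0.65 (SE 0.19, adjusted p = 0.0605). The dimmer probe set read 1057, 1012, 4980, 1222 and 826 against 937, 226, 698, 831 and 818, again with null 3 highest, and a difference of 1.02 (adjusted p = 0.144). Without null 3 the differences were 0.45 (adjusted p = 0.0619) and 0.56 (adjusted p = 0.183). Without WT 4 the brighter was called (0.70, adjusted p = 0.0446), as it was on the deposited scale (0.73, adjusted p = 0.0363) and with array weights (0.65, adjusted p = 0.0445). The neutrophil marker sum of null 3, 18938, lay within the range of the other Scd1-null mice, 16144 to 19879. The neutrophil genes S100a8, S100a9 and Mmp8 were not kept, and the part of neutrophils in the Cxcl1 values was not tested.

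Cxcl10, an interferon-induced ligand of Cxcr3, read 356, 302, 370, 312 and 300 on null 1 to null 5 and 512, 404, 514, 378 and 582 on WT 1 to WT 5. The groups did not overlap and the difference was -0.41 (adjusted p = 0.0642), with 3 of the 5 Scd1-null values below the floor. It was called without WT 4 (-0.49, adjusted p = 0.0206) and with array weights (-0.43, adjusted p = 0.0279). Cxcl12, the ligand of Cxcr4 made by stromal cells, read 4189, 3876, 3635, 3647 and 3544 against 3043, 3425, 3542, 3612 and 3830, a difference of 0.12 (adjusted p = 0.368, 95% interval -0.05 to 0.29), and exceeded the 95th percentile of the background list on 6 arrays. Cxcl2, Cxcl5 and Cxcl13 were at or below the floor on all 10 arrays.

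Promoter sequence was available for 74 of the 93 member genes, from RefSeq on build GRCm38.p6, as 250 bases before to 50 bases after the gene start. An NF-kappaB motif (GGG, any 2 bases, then TTTCC, on either strand) was present in the promoters of 7 of those 74 genes (9.46%) and in 1.62% of all 27025 promoters of this length. The 7 were Ccl9, Ccr3, Cxcl1, Cxcl2, Il4ra, Il6 and Il9, of which Cxcl2 and Il6 were not tested and 0 of the other 5 were called. TTCNNNGAA, a STAT motif, on either strand was present in 12 of the 74 (16.2%, against 8.47% of all), and TATAAA, the TATA box, in 16 (21.6%, against 14.2%). These matches describe letters and are not binding sites, and no test was made of them. The promoters of the 2 called genes in the table and of Cxcl1, whose 2 probe sets both lay higher in null 3, are shown 5′ to 3′ with matches to the 3 motifs in capitals. Within these 3 promoters no match overlaps another. Ccl11 has no entry. Il1b lies at chr2:129371090-129371389 on the minus strand and holds 1 TATA box, 31 bases upstream. Tnfrsf1b lies at chr4:145246821-145247120 on the minus strand and holds 1 STAT motif, 181 bases upstream. Cxcl1 lies at chr5:90890995-90891294 on the plus strand and holds 2 NF-kappaB motifs, starting 89 (reverse strand) and 71 (forward strand) bases upstream.
Il1b: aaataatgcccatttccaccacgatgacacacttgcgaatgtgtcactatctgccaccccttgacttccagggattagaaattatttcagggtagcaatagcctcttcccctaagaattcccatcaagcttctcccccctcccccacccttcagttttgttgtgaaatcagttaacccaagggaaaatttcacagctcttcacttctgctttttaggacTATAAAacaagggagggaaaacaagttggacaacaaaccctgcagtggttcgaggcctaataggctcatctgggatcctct
Tnfrsf1b: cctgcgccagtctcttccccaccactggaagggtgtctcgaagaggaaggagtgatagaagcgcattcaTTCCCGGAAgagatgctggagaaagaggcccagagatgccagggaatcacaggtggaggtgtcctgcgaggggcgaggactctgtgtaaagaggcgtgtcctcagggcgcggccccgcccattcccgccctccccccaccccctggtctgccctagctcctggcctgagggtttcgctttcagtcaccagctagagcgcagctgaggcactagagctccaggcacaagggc
Cxcl1: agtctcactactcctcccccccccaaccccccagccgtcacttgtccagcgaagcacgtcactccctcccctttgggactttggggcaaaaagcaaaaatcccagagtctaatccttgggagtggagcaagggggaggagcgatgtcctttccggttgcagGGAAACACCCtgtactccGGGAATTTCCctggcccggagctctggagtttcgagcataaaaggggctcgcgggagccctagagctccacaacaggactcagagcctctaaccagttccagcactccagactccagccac

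Of 13 probe sets of chemokine receptors, 1 for each gene, 9 were kept and 0 were called. Their differences ranged from -0.25 to 0.12, with a median of -0.02 and a median standard error of 0.15. Of the receptors of the chemokines described above, Ccr1, Ccr2, Ccr3, Ccr4, Ccr8 and Cxcr2 were kept and not called. Ccr7, Ccr9 and Cxcr4 were at or below the floor on all 10 arrays, and Cxcr3, the receptor of Cxcl10, was not kept. Ccr4 and Ccr8 were the chemokine receptors that exceeded the median of the background list on all 5 arrays of a group.

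Of 24 probe sets of interleukin receptors 16 were kept and 0 were called, with differences from -0.28 to 0.35 and a median of -0.04. Il27ra, the ligand-specific chain for interleukin-27, read 6836, 7314, 8510, 6858 and 5461 on null 1 to null 5 and 6421, 6141, 6628, 6490 and 6404 on WT 1 to WT 5, and exceeded the 95th percentile of the background list on all 10 arrays. Its difference was 0.11 (adjusted p = 0.492, 95% interval -0.10 to 0.32). The wild-type values were close together, while null 3 was the highest and null 5 the lowest of the 10.

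Il6ra, the binding chain for interleukin-6, read 3161, 3425, 3018, 3152 and 2999 on null 1 to null 5 and 2459, 2795, 2791, 2053 and 3010 on WT 1 to WT 5. Only WT 5 reached the lowest Scd1-null value, by a small margin, and the difference was 0.28 (adjusted p = 0.107, 95% interval 0.06 to 0.49). It was called on the deposited scale (0.39, adjusted p = 0.0398). Il6st, which encodes the shared signalling chain gp130, had 2 kept probe sets with differences of -0.06 and 0.13, and Il6 itself was at or below the floor on all 10 arrays.

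Il10rb, a chain shared by the receptors of interleukin-10, interleukin-22 and lambda interferons, read 2592, 2475, 2629, 2159 and 2354 on null 1 to null 5 and 2900, 2784, 3016, 2725 and 3021 on WT 1 to WT 5. The groups did not overlap, with a difference of -0.25 (SE 0.08, adjusted p = 0.0697). It was called without WT 4 (-0.27, adjusted p = 0.0473) and with array weights (-0.25, adjusted p = 0.0401). Il4ra, the shared chain for interleukin-4 and interleukin-13, read 1456, 1183, 995, 1409 and 1505 against 1345, 1669, 1574, 1698 and 1614, a difference of -0.28 (adjusted p = 0.164). Null 1, null 4 and null 5 lay among the wild-type values.

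Il13ra1, the second chain for interleukin-13, read 672, 583, 470, 409 and 595 on null 1 to null 5 and 402, 439, 457, 379 and 460 on WT 1 to WT 5, a difference of 0.33 (adjusted p = 0.142). Il2rb, a chain of the interleukin-2 and interleukin-15 receptors of T and NK cells, read 1113, 862, 1063, 1156 and 1074 against 1317, 1182, 1084, 1444 and 1392, a difference of -0.28 (adjusted p = 0.131). Both had overlapping groups, and their signs were opposite. Il18rap, the accessory chain for interleukin-18, read 1207, 1321, 1258, 1353 and 1230 against 1031, 1203, 1302, 992 and 938, a difference of 0.23 (adjusted p = 0.188). Il3ra, the binding chain for interleukin-3, read 610, 467, 543, 628 and 403 against 398, -27, 356, 429 and 544, a difference of 0.35 (adjusted p = 0.169), with WT 2 below 0 and thus at the floor. Neither separated the groups.

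In the TNF families 3 of 5 ligand probe sets and 11 of 12 receptor probe sets were kept, and 1 receptor was called higher. Tnfrsf1b encodes TNF receptor 2, found mainly on immune and endothelial cells. Tnfrsf1b read 1116, 1145, 942, 1279 and 891 on null 1 to null 5 and 689, 728, 600, 972 and 787 on WT 1 to WT 5. WT 4, at 972, lay above null 3 and null 5, and the other 4 wild-type mice lay below every Scd1-null mouse. Tnfrsf1b rose by 0.51 (SE 0.14, limma adjusted p = 0.0491).

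The Tnfrsf1b call was lost without any 1 Scd1-null array (adjusted p between 0.0559 and 0.113) and without WT 1, WT 2, WT 3 or WT 5 (0.056 to 0.108). Without WT 4 the difference was 0.61 (adjusted p = 0.0146). With the run as a block it was 0.41 (adjusted p = 0.381). Scaling to the 75th percentile ended the call as well (0.47, adjusted p = 0.0521). So did a floor at the 10th percentile (adjusted p = 0.0577), a pseudocount (0.0503) and no filter (0.0984).

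Tnfrsf1a, the death domain TNF receptor that hepatocytes carry, read 1832, 2283, 1343, 2045 and 1992 on null 1 to null 5 and 2071, 1840, 2525, 2228 and 2167 on WT 1 to WT 5. Its difference was -0.20 (adjusted p = 0.35, 95% interval -0.49 to 0.08), within overlapping groups and of the opposite sign to that of Tnfrsf1b. Tnfrsf11b, which encodes osteoprotegerin, a soluble decoy for Tnfsf11, read 2089, 1843, 1789, 1631 and 1571 against 2275, 2098, 2153, 1979 and 1934, a difference of -0.23 (adjusted p = 0.136). Tnfrsf18, a costimulatory receptor of T cells, read 1576, 1553, 1859, 1807 and 1465 against 1564, 1823, 1761, 1470 and 1704, a difference of -0.01 (adjusted p = 0.95, 95% interval -0.22 to 0.20). Both had overlapping groups. The ligands Tnfsf8, Tnfsf9 and Tnfsf10 had differences from -0.11 to 0.03, and Tnfsf4 and Tnfsf11 were not kept.

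**Figure D4:**
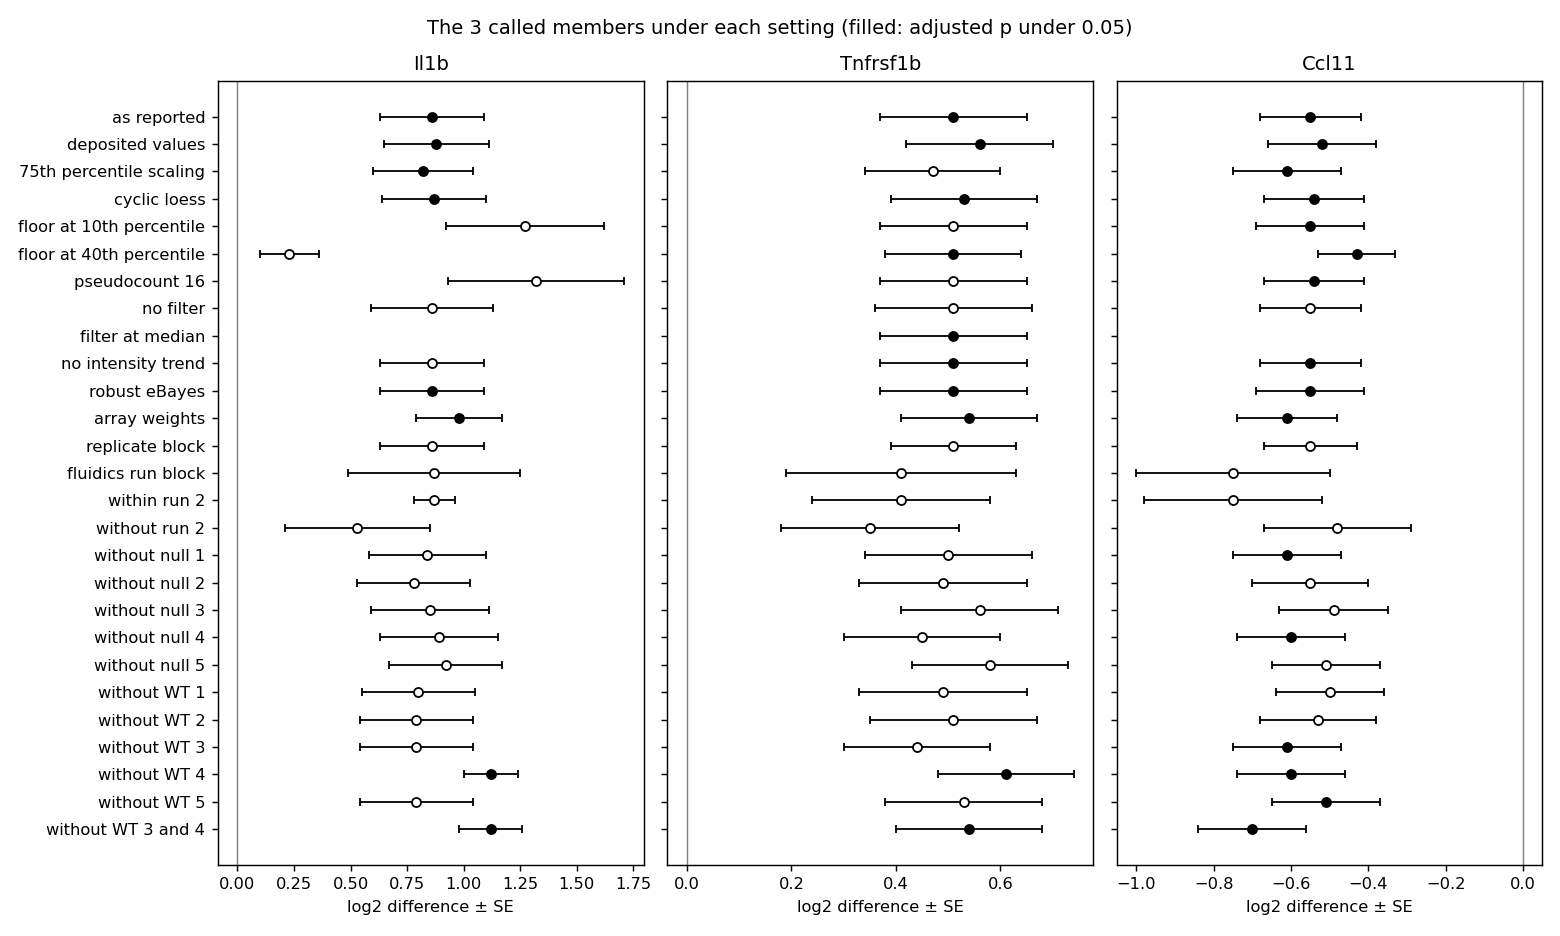
Difference ± SE (log2, horizontal axes of different range) of the 3 called members under the reported setting and each alternative; filled points have an adjusted p under 0.05, and a missing point means that the probe set was not kept. Il1b and Tnfrsf1b are open in each fit that leaves out 1 array, other than that without WT 4.

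Cytokine genes whose names do not follow the pattern, and the signalling proteins below the receptors, were read from 6 lists. Beside their counts stands the share called of all tested probe sets, 6.33% (3.57% higher and 2.76% lower). Of 19 genes of the JAK, STAT and SOCS list 17 were kept, with 0 probe sets higher and 1 lower of 20. Stat5a, a transcription factor that acts below the growth hormone and interleukin-2 receptors, read 1587, 1514, 1618, 1724 and 1850 on null 1 to null 5 and 2428, 2436, 2297, 1706 and 2236 on WT 1 to WT 5 at that probe set, and fell by 0.41 (SE 0.11, adjusted p = 0.0385). WT 4 alone lay within the Scd1-null range. Its brighter probe set gave -0.08 (adjusted p = 0.667). Leaving out any 1 array other than WT 4 ended the Stat5a call (0.0527 to 0.0996), and so did the deposited scale (-0.32, adjusted p = 0.07). The brightest gene of the list was Cish, a feedback inhibitor induced by STAT5, at -0.27 (adjusted p = 0.0605). The list's median difference was -0.11.

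Of 16 genes of the adaptor list below TNF and interleukin-1 receptors 15 were kept, with 0 probe sets higher and 1 lower of 17, and a median of -0.15. Fadd, the adaptor that links death receptors to caspase-8, read 1005, 1077, 1030, 1051 and 1429 on null 1 to null 5 and 1641, 1525, 1526, 1595 and 1563 on WT 1 to WT 5. All Scd1-null values lay below all wild-type values, with null 5 the nearest to them. Fadd fell by 0.50 (SE 0.10, adjusted p = 0.0177). The call was lost without null 2 (adjusted p = 0.0506), and blocking on the run gave -0.13 (adjusted p = 0.706), which rests on null 5. The brightest gene was Traf2, an adaptor of both TNF receptors, at -0.32 (adjusted p = 0.0586).

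Among the other cytokines and receptors of the JAK-coupled families 24 of 26 genes were kept, with 0 of 33 probe sets higher and 2 lower and a median of -0.08. Epo, erythropoietin, read 994, 911, 1089, 955 and 1060 on null 1 to null 5 and 1346, 1346, 1654, 1315 and 1188 on WT 1 to WT 5 and fell by 0.45 (adjusted p = 0.0261). Csf2rb2, a receptor chain for interleukin-3 in mice, read 1101, 1240, 1321, 1069 and 1062 against 1480, 1532, 1613, 1362 and 1417 and fell by 0.36 (adjusted p = 0.0421). Neither gene's groups overlapped. Leaving out null 1, 2 or 5 (0.055, 0.0736 and 0.0521) or WT 1, 2 or 3 (0.0567, 0.0526 and 0.0596) ended the Epo call. Csf2rb2 lost its call when null 1, 2, 4 or 5 (0.0727 to 0.103) or WT 1, 2 or 3 (0.0869 to 0.0993) was left out, with cyclic loess (-0.34, adjusted p = 0.0514) and on the deposited scale (-0.29, adjusted p = 0.0668). The brightest gene was Lifr, the receptor of leukaemia inhibitory factor, at 0.02 (adjusted p = 0.937) at its brightest probe set and from -0.58 (adjusted p = 0.0581) to -0.08 (adjusted p = 0.544) at 3 others.

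The 3 remaining lists had 0 called genes. Of the TNF superfamily genes named otherwise 8 of 11 were kept, with Ltbr, the lymphotoxin beta receptor, the brightest at 0.13 (adjusted p = 0.541). Tnf itself, named after its value was seen, had a difference of 0.39 (adjusted p = 0.204, 95% interval -0.01 to 0.80). Of the other chemokines and receptors 13 of 16 were kept, with Rarres2, which encodes chemerin, the brightest at -0.05 (adjusted p = 0.633). Of the cytokine genes that act through receptor tyrosine kinases 5 of 6 were kept, with Flt3, a receptor of blood progenitors, the brightest. Its brighter probe set was at -0.07 (adjusted p = 0.673), and its dimmer at -0.30 (adjusted p = 0.0534) with groups that did not overlap.

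In whole liver, fewer cells of a type and less RNA per cell cannot be told apart, so the markers of the cell types that carry these genes were read beside them. Of 13 macrophage and Kupffer cell marker genes on the array 10 were kept and 0 called, with differences from -0.36 to -0.08. For C1qb and Cd5l that sign rests on WT 5: without it they were at 0.35 and 0.16, the other 8 stayed below 0, and 0 were called. Each gene's brightest probe set was summed. The macrophage sum ranged from 17964 to 19864 in Scd1-null and from 19135 to 30853 in wild-type mice, with WT 5 highest and the other 4 at 19135 to 20953, and Lyz2 and Marco were at or below the floor on all arrays. WT 5 read 3489 for C1qb, a complement gene of macrophages named after its values were seen, where the other wild-type mice read 617 to 964.

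The T cell sum was 16779 to 18755 in Scd1-null and 19673 to 23677 in wild-type mice, which did not overlap, nor did they without Zap70, its brightest gene (8652 to 9794 against 9956 to 11532). Of its 10 genes 7 were kept, and 1 of 10 kept probe sets was called, where 6.33% of all tested probe sets were. Cd4, the coreceptor of helper T cells, read 4898, 4388, 4262, 4404 and 4459 on null 1 to null 5 and 6014, 5117, 5639, 5806 and 4807 on WT 1 to WT 5, with WT 5 within the Scd1-null range. Cd4 fell by 0.29 (adjusted p = 0.0421), but the difference was -0.13 (adjusted p = 0.354) on the deposited scale and -0.22 (adjusted p = 0.102) with 75th percentile scaling. Cd4 also had an adjusted p of 0.069 to 0.099 when null 2, 3, 4 or 5 was left out, and of 0.057 to 0.0993 when WT 1, 2 or 3 was. Of the T cell genes Cd3d lay at or below the floor on all arrays, and Cd3g and Cd8a were not kept either. Cd4 was the brightest after Zap70, so the sum without Zap70 rests in large part on Cd4. Whether the groups stay apart without both genes was not tested. At their brightest probe sets Cd247 and Cd5 differed the other way (0.08, adjusted p = 0.756, and 0.09, adjusted p = 0.792). Those of the other kept T cell genes, Cd2, Cd28, Cd3e, Cd4 and Zap70, lay below 0. The mast cell sum was 6386 to 7608 in Scd1-null and 5984 to 6912 in wild-type mice. Of 9 mast cell genes 5 were kept, and 1 of 8 kept probe sets was called. Mcpt1, a mast cell protease, read 1061, 878, 1179, 867 and 1048 on null 1 to null 5 and 766, 486, 214, 340 and 554 on WT 1 to WT 5, with no overlap. Mcpt1 rose by 1.06 (adjusted p = 0.0109) at this probe set, and its dimmer probe set was not kept. Mcpt2, also not kept, lay lower in Scd1-null mice without overlap (mean 167 against 314), above the floor on WT 4 and WT 5 alone. At their brightest probe sets Cma1 (0.64), Tpsab1 (0.09) and Tpsb2 (0.06) had the sign of Mcpt1 and Kit (-0.21) the opposite one, none called. The dimmer kept probe sets of Cma1 (-0.02 and -0.14) and Tpsb2 (-0.12) had the opposite sign to Mcpt1 and were not called either. The defining mast cell genes Cpa3 and Fcer1a were at or below the floor on all arrays. With the run as a block, Stat5a, Fadd, Epo, Csf2rb2, Cd4 and Mcpt1 all missed the threshold (adjusted p from 0.194 to 0.706).

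Markers of the other cell types had 0 calls. The NK cell sum was 3089 to 3823 in Scd1-null and 3463 to 4441 in wild-type mice, with Ncr1 and Klrd1 at or below the floor, and the B and plasma cell sum was 12892 to 13796 against 13938 to 14464. Without Ms4a1, its brightest gene, the B and plasma cell sums overlapped (6719 to 7103 against 6470 to 7453), and the brightest probe sets of Ighm and Pax5 differed the other way (0.24, adjusted p = 0.0699, and 0.22, adjusted p = 0.243). The neutrophil sum was 16144 to 19879 against 18983 to 20737, with S100a8 and Mmp8 at or below the floor. The endothelial sum was 13295 to 15381 against 13751 to 15740, and that of stellate cells and fibroblasts 9777 to 10688 against 9754 to 12470. The hepatocyte sum, 133211 to 147909 against 133148 to 149358, had Alb, which encodes serum albumin, as its brightest gene. The part of cell numbers in any difference given here was not tested.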

How the data were processed

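The authors deposited a table of 1 intensity value per probe set and array, on a linear scale, with 1.19% of values below 0. No source used here names the summarising algorithm or scaling. Gene symbols came from the platform annotation, updated by gene ID to RefSeq (GRCm38.p6). After 66 control probe sets were left out, 9977 were quantile normalized, floored at 351 and taken to log2, and 7569 above the floor on at least 5 arrays were fitted with limma 3.58.1 (R 4.3.3, intensity trend) over the 5 Scd1-null and 5 wild-type mice, with no covariate and Benjamini-Hochberg adjustment. The number of arrays limits the precision. Tested on simulated data, the fit called 28 of 52 kept probe sets changed by 0.5 on the log2 scale (53.8%). For changes of 1 and 2 it called 43 of 52 (82.7%) and 57 of 58 (98.3%), with 4 false calls of 132. Changed probe sets that the filter removed are not in these shares. Nor do these counts give a rate of false calls for the real arrays, where strain background and chip lot go with genotype.

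The members and lists were chosen with earlier results of these data known. Values per array are given for called members, kept members whose groups do not overlap, the 12 member genes of highest mean intensity and the 8 other kept members of smallest p, and, of the other lists, for called genes, while each list's brightest gene is given by its difference. Exceptions are named in the text. Alternatives changed the scaling, floor, pseudocount, filter, variance model, array weights, blocks and arrays used. Those for called genes of the other lists and for marker sums were chosen after seeing the data.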

Additional observations from a re-analysis of the deposited data

Results flagged for a closer look

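In 158 groups of 5 mice, 136 of them of member probe sets, the highest or lowest mouse was compared with the others by the gap to its neighbour as a share of the group's range. In 10 groups that gap exceeded Dixon's 95% critical value of 0.71, 9 of them of members, where chance gives about 1 group in 20.

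Null 3 stood above the other Scd1-null mice at 3823 and 4980 for the brighter and dimmer Cxcl1 probe sets and at 1234 for the brighter probe set of Tnfrsf8, a receptor of activated lymphocytes. WT 2 was low among wild-type mice at 1046 for the brighter Cxcl1 probe set. WT 5 was high among wild-type mice at 615 for Ccl5, a T cell attractant, and at 845 for Tnfrsf11a, the receptor of Tnfsf11, and read -253 for the chemokine Cxcl14. WT 5 also had the high macrophage marker sum of 30853. Null 2 was low at 494 for Tnfrsf17, a plasma cell receptor, and null 5 at -770 for Il10.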

How the results depend on the processing

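Over 33 named results and 844 alternatives, 698 kept their direction and side of the threshold. Of the others 108 lost a call, 27 gained one and 11 turned direction. Only a called result could lose a call, and most of the 33 were not called. The 698 therefore include results that stayed uncalled and do not measure how stable the calls were. The causes were not tested. Members called higher and lower, 2 and 1 as reported, numbered 4 and 2 on deposited values, 1 and 4 with 75th percentile scaling, 0 and 2 with a floor at the 10th percentile or a pseudocount, 1 and 2 with a floor at the 40th percentile or no intensity trend, 0 and 1 with no filter, 1 and 1 with the filter at the median, 2 and 3 with robust eBayes, and 3 and 6 with array weights. Over all tested probe sets these counts were 270 and 209 as reported and 480 and 96 on deposited values. They were 311 and 223 with 75th percentile scaling, 256 and 189 with the 10th percentile floor and 250 and 193 with a pseudocount. They were 255 and 211 with the 40th percentile floor, 233 and 184 with no intensity trend and 152 and 151 with no filter. They were 240 and 188 with the median filter, 284 and 215 with robust eBayes and 517 and 497 with array weights. Member calls without 1 array ranged from 0 to 3 and from 0 to 4. They were 0 and 0 with the run as a block, within run 2 and without run 2, and also with the replicate number as a block, where Ccl11 was at -0.55 (adjusted p = 0.0522), Tnfrsf1b at 0.51 (0.0522) and Il1b at 0.86 (0.0775). Replicate numbers share no stated source: deviations of same-numbered mice correlated at -0.111, -0.0121, 0.108, -0.127 and -0.0392, and 1 of 5 pairs correlated best with its own number. Members above background were 2 as reported, 8 at the 90th percentile of the background list and 0 at the 99th. Calls over all tested probe sets ranged from 102 to 491 higher and from 62 to 449 lower without 1 array. With the run as a block they were 7 and 7, without run 2 10 and 6, and with the replicate number as a block 151 and 68. Of all calls 56.4% were higher as reported and 83.3% on deposited values. Member calls were 66.7% higher as reported, and 1 of 5 with 75th percentile scaling. The median difference of the TNF receptors, 0.02, was -0.01 with 75th percentile scaling, and those of chemokine and interleukin receptors were 0.00 on deposited values. Near 0, Ccl22 turned to -0.05 without run 2, and Tnfrsf18 to 0.07 on deposited values, 0.00 with cyclic loess, 0.10 without run 2, and 0.00, 0.01, 0.03, 0.02 and 0.01 without null 1, null 2, null 5, WT 2 and WT 3, where the fits without 1 array ranged from -0.06 to 0.03. Il27ra was -0.23 with the run as a block and within run 2. Il1b and Ccl11 were not kept with the filter at the median.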
